A study of Homo sapiens with 66 samples.

Results

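Mitochondrial DNA encodes 13 messenger RNAs, and 10 of them are described here across every group of the series. They are the 7 ND transcripts, MT-ND1, MT-ND2, MT-ND3, MT-ND4, MT-ND4L, MT-ND5 and MT-ND6, and the 3 CO transcripts, MT-CO1, MT-CO2 and MT-CO3. They were chosen by name, through their Ensembl gene identifiers, and all 10 were found among the 20167 genes of the count table and passed the filter on low counts in every comparison. Transcript levels were measured by RNAseq of polyadenylated RNA in 66 libraries of human multiple myeloma cell lines. The lines were AMO1 (36 libraries in 12 groups, labelled WT) and L363-CFZr, an L363 subline resistant to the proteasome inhibitor carfilzomib (30 libraries in 10 groups). Each group held 3 libraries of cells exposed for 6 h or 24 h to DMSO, the solvent control, or to 1 µM of NCP26, halofuginone (HFG), halofuginol or NCP22, and AMO1 cells were also exposed to carfilzomib (CFZ). The labels name no deletion or transgene in either line. None of the 66 libraries came from L363 cells without this resistance, so line of origin and resistance cannot be told apart. HFG and NCP26 inhibit the prolyl-tRNA synthetase activity of GluProRS, which charges tRNA with proline. The study includes halofuginol and NCP22 among compounds aimed at the same activity, and describes their potency as lower or absent. Whether they act on the charging of tRNA inside mitochondria was not tested. By the study's methods the 6 h pellets were frozen overnight and the 24 h pellets were kept on ice, so exposure time and storage cannot be told apart. The study's methods state that conditions were run in triplicate and that experiments used biological triplicates in general, but neither they nor the labels tie these 3 libraries to separate cultures, so the p-values measure the spread between these libraries, which may be technical.

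Complex I, or NADH dehydrogenase, passes electrons from NADH to ubiquinone, and complex IV, or cytochrome c oxidase, passes them from cytochrome c to oxygen. Both pump protons across the inner mitochondrial membrane, and both are built from a membrane core made inside the mitochondrion (the ND and CO proteins) and many subunits imported from the cytosol. The mitochondrial genome is transcribed from each strand as a long precursor, which is cut, mostly at the tRNAs between the genes. Most of the mRNAs, though not all, are then polyadenylated, and each is degraded at a rate of its own. Myeloma cells are malignant plasma cells, the cells that secrete antibodies.

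All 10 transcripts lie on chromosome M of GRCh38, in the order MT-ND1 (chrM:3307-4262), MT-ND2 (chrM:4470-5511), MT-CO1 (chrM:5904-7445), MT-CO2 (chrM:7586-8269), MT-CO3 (chrM:9207-9990), MT-ND3 (chrM:10059-10404), MT-ND4L (chrM:10470-10766), MT-ND4 (chrM:10760-12137), MT-ND5 (chrM:12337-14148) and MT-ND6 (chrM:14149-14673). Each is annotated in GENCODE v44 as a single exon without introns, on the plus strand for 9 of them and on the minus strand for MT-ND6. MT-ND4L and MT-ND4 are translated from a shared mRNA and overlap by 7 bases, and MT-ND5 and MT-ND6 meet end to end on opposite strands. Both junctions are shown because reads at these places bear on the levels of neighbouring members. In the first sequence capitals mark the bases that belong to both genes, and in the second they mark the 3′ end of MT-ND6, which is read on the other strand.

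MT-ND4L/MT-ND4 junction (chrM:10750-10776, plus strand): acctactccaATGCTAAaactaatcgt
MT-ND5/MT-ND6 junction (chrM:14134-14163, plus strand): ctcctaatcacataaCCTATTCCCCCGAGC

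The libraries were directional, but whether the reads were counted by strand is not given in the sources used here, so reads of MT-ND6 and of RNA from the opposite strand may not have been separated. Since polyadenylated RNA was selected, the values of MT-ND6 also depend on whether its mRNA carries a poly(A) tail, which was not tested. They may in part be those of RNA from the MT-ND5 strand. The counts rest on 31-mers, and between 3.48% of those of MT-ND3 and 66.7% of those of MT-CO1 also occur in another gene of GENCODE v44. At most 2 of a member's 31-mers occur in another gene of the count table. Transcripts lacking from the table, such as the mitochondrial rRNAs, are not used here.

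Total counts ran from 1666325 to 6596543 per library, and the 10 members together took 74567 to 409150 of these reads in a library. All 9 plasma cell markers had a median over 1 CPM (counts per 1000000 of the total count) in both lines, with a summed level of 4695.5 to 9366 CPM in AMO1 and 4805 to 9237 CPM in L363-CFZr, whereas the summed T cell, myeloid, mature B cell and erythroid markers reached at most 4.395 CPM in any library. The column names divide the libraries into 3 sets of 22 sample numbers. Set 1 held all AMO1 6 h libraries with AMO1 DMSO at 24 h and 1 CFZ library, set 2 the other AMO1 24 h libraries with L363-CFZr DMSO, NCP26 and 2 NCP22 libraries of 6 h, and set 3 the other L363-CFZr libraries. The compared groups thus belong to different sets for NCP26, NCP22, HFG and halofuginol against DMSO in AMO1 at 24 h, for CFZ there but for replicate 1, for HFG and halofuginol against DMSO in L363-CFZr at 6 h, and for the comparisons of the lines. The same holds in L363-CFZr for DMSO at 24 h against 6 h and for NCP26 against HFG at 6 h. A set was told from a group through 1 group in each line alone, CFZ at 24 h in AMO1 (replicate 1 in set 1, the others in set 2) and NCP22 at 6 h in L363-CFZr (replicate 3 in set 3, the others in set 2), and every value given with a set term rests on these libraries.

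In 4 libraries the mix of the 10 transcripts departed from that of the other 2 libraries of the group. A departure is the log2 ratio of a member's CPM to the mean of the other 2 replicates, less the median of the 10 members. Its SD over the members was 0.06 at the median of the 66 libraries and 0.47, 0.41, 0.37 and 0.36 in these. In L363-CFZr DMSO 24 h replicate 2 MT-ND5 stood at 7898 CPM against 4237 and 4262 CPM in its replicates, and in AMO1 CFZ 24 h replicate 2 at 5047 against 3162 and 2993 CPM. Both had high MT-ND5 and MT-ND6, with MT-ND3 and the CO transcripts low against the other members. MT-ND3 was high instead in AMO1 NCP26 6 h replicate 1, where it stood at 917 CPM against 453 and 421 CPM, and in L363-CFZr NCP26 6 h replicate 2, where it stood at 1196 against 878 and 833 CPM. In that library MT-ND5 was low, at 2274 CPM against 3273 and 3525 CPM. These 4 libraries also stood apart over all genes, so their departure was not particular to the 10 members. The chi-square per gene against the other 2 replicates was 36.25 and 34.73 for the L363-CFZr DMSO library and 25.08 and 30.3 for the AMO1 CFZ library. For the NCP26 libraries it was 11.99 and 19.58 in L363-CFZr and 8.399 and 7.886 in AMO1. Pairs of replicates without these libraries had at most 5.81. Counts of called members that change without 1 of these libraries, group mean shares, and correlations over all libraries are given without them too, a choice made after the values were seen.

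**Figure D1:**
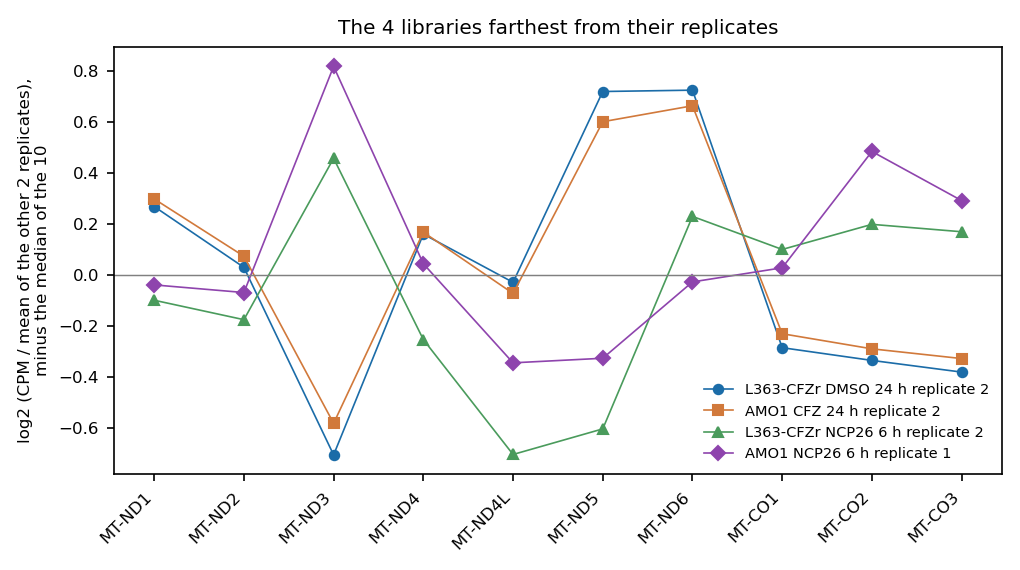
Departure of each member (x axis) in the 4 libraries whose mix of members was farthest from their replicates, as the log2 ratio of its CPM to the mean of the other 2 replicates, less the median of the 10 members (y axis). MT-ND5 and MT-ND6 were high in the DMSO and CFZ libraries of 24 h, and MT-ND3 was high and MT-ND4L and MT-ND5 were low in the 2 NCP26 libraries of 6 h.

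Together the 10 transcripts took between 3.09% and 4.93% of the total count in AMO1 libraries and between 5.31% and 7.55% in L363-CFZr libraries, so that every L363-CFZr library lay above every AMO1 library. These summed shares are given as a description, without a test. In AMO1 the order of the group means (± SD, n = 3) began with CFZ at 24 h (4.72% ± 0.17) and HFG at 24 h (4.70% ± 0.23), followed by halofuginol at 6 h (4.35% ± 0.25) and DMSO at 6 h (4.18% ± 0.06). In the middle lay NCP22 at 6 h (3.95% ± 0.26), NCP22 at 24 h (3.94% ± 0.25), HFG at 6 h (3.94% ± 0.15), DMSO at 24 h (3.88% ± 0.06), NCP26 at 6 h (3.83% ± 0.55) and CFZ at 6 h (3.82% ± 0.10). The lowest were halofuginol at 24 h (3.58% ± 0.29) and NCP26 at 24 h (3.17% ± 0.06). Of the 11 pairs of neighbours in this order 10 overlapped, and the libraries of NCP26 at 24 h (3.09%, 3.20% and 3.20%) lay below those of halofuginol at 24 h (3.74%, 3.76% and 3.24%). Without the 4 libraries above, the mean of CFZ at 24 h was 4.63%, under that of HFG at 24 h, and that of NCP26 at 6 h was 3.51%, under that of halofuginol at 24 h. The HFG libraries of 24 h, at 4.47%, 4.93% and 4.70%, lay above those of DMSO at 24 h, at 3.86%, 3.84% and 3.96%.

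In L363-CFZr the 5 groups of 24 h stood highest, DMSO (7.17% ± 0.33), halofuginol (7.02% ± 0.05), NCP22 (6.89% ± 0.16), HFG (6.69% ± 0.10) and NCP26 (6.27% ± 0.14). The place of DMSO rested on replicate 2, since its libraries stood at 6.92%, 7.55% and 7.05% and the mean of the other 2 was 6.99%, under that of halofuginol. The libraries of NCP26, at 6.29%, 6.11% and 6.40%, did not overlap those of HFG, at 6.601%, 6.81% and 6.67%. Among the 6 h groups NCP22 (6.24% ± 0.07) and DMSO (6.18% ± 0.19) were followed by halofuginol (5.92% ± 0.25), NCP26 (5.73% ± 0.08) and HFG (5.58% ± 0.24), and 8 of the 9 pairs of neighbours in the order overlapped. The CO transcripts made up the larger part of the sum in every group, for example 2.18% against 1.71% of the total count for the ND transcripts in AMO1 DMSO at 24 h. With HFG at 24 h in AMO1 they stood at 2.81% against 1.89%. In bulk RNA fewer cells of a type and less of a transcript per cell cannot be told apart, nor can fewer mitochondrial transcripts and more RNA from nuclear genes.

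**Figure D2:**
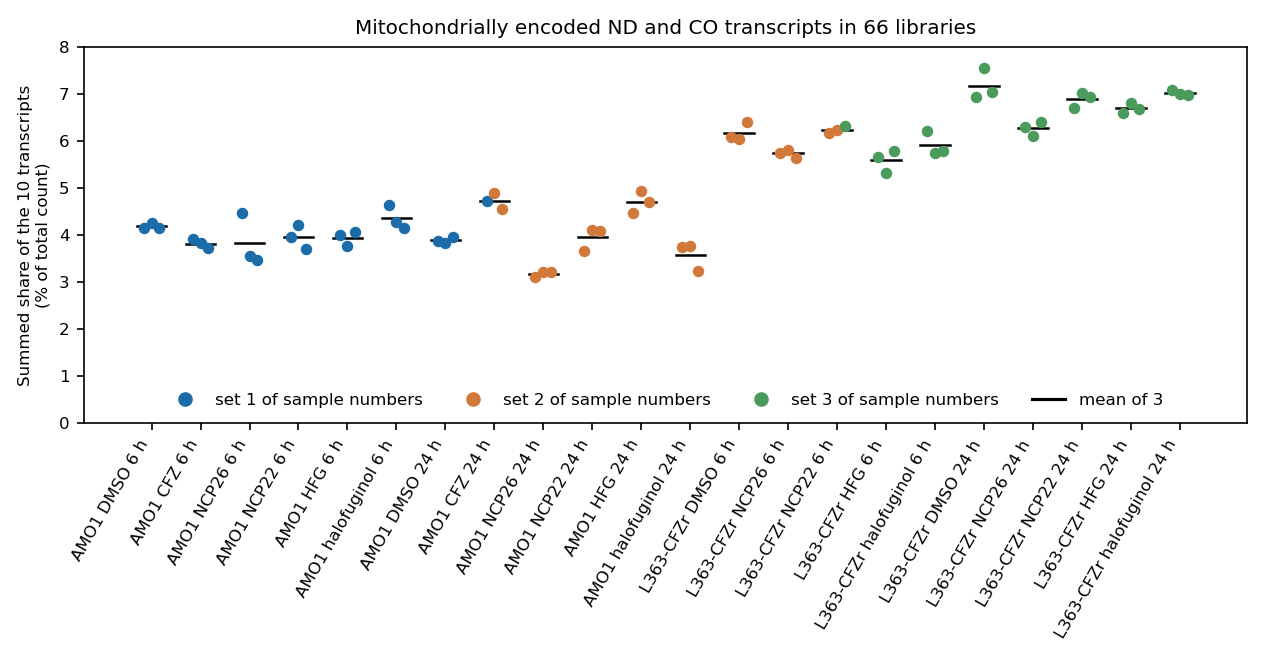
Share of the total count taken by the 10 ND and CO transcripts in each of the 66 libraries (y axis, percent, from 0), by group on the x axis, with a bar at the mean of 3 replicates and colour for the set of sample numbers. AMO1 NCP26 at 24 h had the lowest mean, 3.17%, and L363-CFZr DMSO at 24 h (7.17%, or 6.99% without replicate 2) and halofuginol at 24 h (7.02%) lay at the top.

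Compared per kilobase of transcript, at the median of the 66 libraries, MT-CO1, the catalytic subunit of complex IV, and MT-CO2, its copper-bearing partner at the cytochrome c site, were the most abundant members, at 10182 and 10038 CPM per kilobase. MT-CO3 followed at 6662, then MT-ND4 at 6018, MT-ND4L at 3545, MT-ND1 at 3276 and MT-ND2 at 2866 CPM per kilobase. The lowest were MT-ND3 at 1823, MT-ND5 at 1671 and MT-ND6, the light-strand transcript, at 1261.5 CPM per kilobase. Although MT-ND4L and MT-ND4 share an mRNA, MT-ND4 was higher per kilobase in 66 of 66 libraries. CPM was divided by the full length of the gene, without allowance for the length of the sequenced fragments. The levels of short members, such as MT-ND4L (297 bases) and MT-ND3 (346 bases), may therefore be understated against long ones, which was not tested. Other neighbours in this order differed between the lines. MT-ND1 exceeded MT-ND2 per kilobase in 34 of 36 AMO1 libraries and in 1 of 30 L363-CFZr libraries, and MT-ND4L exceeded MT-ND1 in 15 of 36 and 29 of 30. MT-CO1 and MT-CO2 stood close together in L363-CFZr, where MT-CO1 was higher in 17 of 30 libraries, against 35 of 36 in AMO1.

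The comparison of DMSO libraries asked how the untreated lines differed, in which line of origin and carfilzomib resistance cannot be told apart. At 6 h, 9 of the 10 members were higher in L363-CFZr and MT-ND1 was lower, where 28.9% of the tested genes were called higher and 31.3% lower. Values are given in CPM of the total count, and differences as log2 fold changes between TMM-scaled libraries. MT-CO2 stood at 4749.7, 4841 and 4501 CPM in AMO1 and at 9334, 9211 and 10155 CPM in L363-CFZr, a log2 difference of 1.00 ± 0.05 (SE, edgeR adjusted p = 6.99e-13). MT-ND2, a proton-pumping subunit of complex I, stood at 2088, 2127 and 2065 against 3906, 3818 and 4063 CPM, a log2 difference of 0.88 ± 0.05 (SE, edgeR adjusted p = 4.48e-12). MT-ND1, which forms part of the ubiquinone site, went the other way, at 3795, 3829 and 3604 CPM in AMO1 and 3160.0, 2974 and 3332 CPM in L363-CFZr, a log2 difference of -0.27 ± 0.054 (SE, edgeR adjusted p = 0.000203). For none of the 10 members did the libraries of the lines overlap in CPM, as for 64.2% of all tested genes. The other log2 differences were 0.75 for MT-ND3, 0.44 for MT-ND4, 0.44 for MT-ND4L, 0.23 for MT-ND5, 0.53 for MT-ND6, 0.56 for MT-CO1 and 0.57 for MT-CO3.

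At 24 h, 9 members were again higher in L363-CFZr (background 19.3%), with a median log2 difference of 0.81 over the 10 members against 0.01 over all tested genes. The largest were 1.15 for MT-ND6, 1.13 for MT-CO2 and 1.11 for MT-ND2, and MT-ND1, at 2638, 2529 and 2784 CPM in AMO1 and 3162, 4288 and 3151 CPM in L363-CFZr, did not pass the test (log2 difference 0.37 ± 0.16 SE, edgeR adjusted p = 0.11). Without L363-CFZr DMSO 24 h replicate 2 all 10 members were called higher, with a median of 0.83, while the share of all genes called in either direction went from 39.93% to 64.97%, and the 3 values above became 0.82 for MT-ND6, 1.204 for MT-CO2 and 1.07 for MT-ND2. Without AMO1 DMSO 24 h replicate 1 the number of members was 5, and 3128 of all genes were called, from 4460. The lines belong to different sets here, and with a set term 7 members were called higher at 24 h, and 6 higher and 1 lower at 6 h. Without AMO1 CFZ 24 h replicate 2 the set term gave 8 higher at 24 h and 6 higher at 6 h. Of all genes 18.1% and 27.2% were called in these fits.

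**Figure D3:**
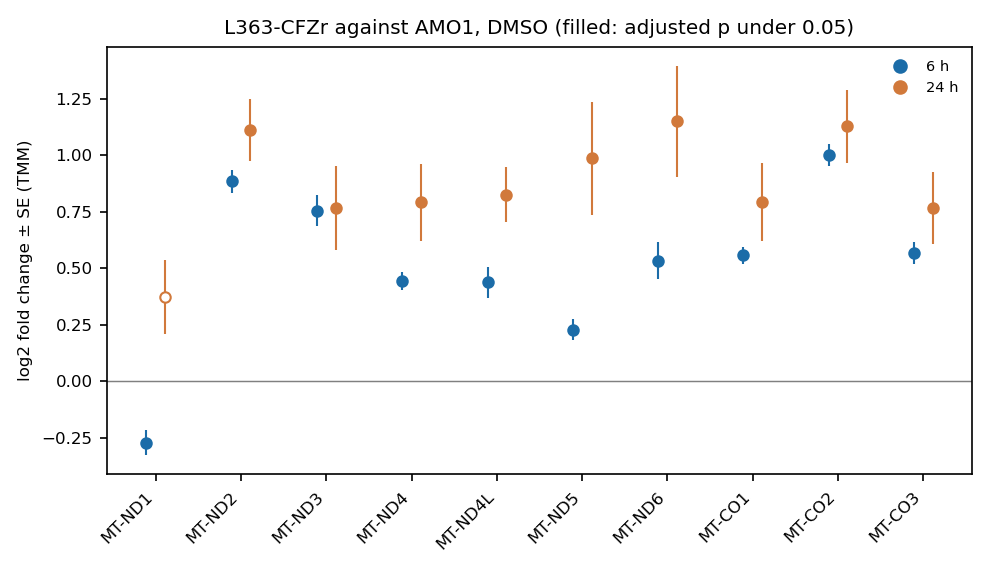
Log2 fold change of each member, L363-CFZr against AMO1, in DMSO libraries at 6 h and 24 h, with bars of 1 SE and filled points where the adjusted p was under 0.05. MT-ND1 was the member below 0 at 6 h, at -0.27, and MT-CO2 stood at 1.00 at 6 h and 1.13 at 24 h.

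In AMO1 cells NCP26 was compared with DMSO to learn how its transcriptional response developed. At 24 h all 10 members were lower with NCP26, where 30.9% of the 10787 tested genes were called lower, and the median log2 fold change of the members was -0.42 against 0.0074 over all tested genes. The largest decreases were those of the shared mRNA of MT-ND4L and MT-ND4. MT-ND4, a proton-pumping subunit of complex I, stood at 7901, 7912 and 7928 CPM with DMSO and at 5311, 5677 and 5492 CPM with NCP26, a log2 fold change of -0.68 ± 0.028 (SE, edgeR adjusted p = 2.87e-19). MT-ND4L stood at 983, 935 and 985 CPM with DMSO and 631, 669 and 656 CPM with NCP26, a log2 fold change of -0.73 ± 0.04 (SE, edgeR adjusted p = 6.72e-16). All 3 NCP26 libraries lay below all 3 DMSO libraries for both.

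The other ND transcripts had smaller log2 fold changes. MT-ND5, a further proton-pumping subunit, went from 2743, 2592 and 2672 CPM to 2088, 2171 and 2132 CPM, a log2 fold change of -0.48 ± 0.033 (SE, edgeR adjusted p = 1.16e-13). MT-ND6 went from 508, 517 and 558 CPM to 422, 439 and 427 CPM, a log2 fold change of -0.45 ± 0.046 (SE, edgeR adjusted p = 5.58e-10). In MT-ND1 the log2 fold change was -0.29 ± 0.035 (SE, edgeR adjusted p = 1.74e-08), and its libraries did not overlap either, at 2638, 2529 and 2784 CPM with DMSO and 2395, 2394 and 2438 CPM with NCP26. The smallest decreases were those of MT-ND2, at 1931, 1846 and 1965 against 1766, 1974 and 1866 CPM and a log2 fold change of -0.19 ± 0.038 (SE, edgeR adjusted p = 7.77e-05), and of MT-ND3, at 464, 421 and 477 against 420.5, 437 and 468 CPM and -0.19 ± 0.05 (SE, edgeR adjusted p = 0.00125). The libraries of both groups overlapped in CPM for these 2 members.

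The 3 CO transcripts lay between these extremes. MT-CO1 went from 13529, 13737 and 13643 CPM to 11059, 11189 and 11372 CPM, a log2 fold change of -0.44 ± 0.024 (SE, edgeR adjusted p = 4.16e-16). MT-CO3, the third core subunit of complex IV, had a log2 fold change of -0.40 ± 0.035 (SE, edgeR adjusted p = 2.82e-11), from 3587, 3523 and 3835 CPM to 2913, 3169 and 3129 CPM, and MT-CO2 one of -0.33 ± 0.033 (SE, edgeR adjusted p = 6.59e-10), from 4327, 4359 and 4717 CPM to 3933, 3911 and 4063 CPM. The groups did not overlap for any of the 3. Of all tested genes 66.2% did not overlap in this comparison, 24.1% with NCP26 below. Every fit that left out 1 library called all 10 members lower, and with total-count scaling, where the median of all genes stood at 0.16, 8 were called lower. With all AMO1 groups and the set of sample numbers as a term in the fit, 5 were called lower, and MT-ND3 had a log2 fold change of 0.09. That term was estimated from the 3 CFZ libraries of 24 h, and without replicate 2 of these, 1 of the 4 libraries above, 5 were called lower as well. Without that replicate 21.7% of all genes were called in either direction, against 29.8% higher and 30.9% lower in the first fit.

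At 6 h NCP26 lowered 4 members in AMO1, -0.55 for MT-ND4L, -0.50 for MT-ND1, -0.35 for MT-ND4 and -0.33 for MT-ND5 on the log2 scale (background 19.1%), and all 10 log2 fold changes were negative. MT-ND1 stood at 3795, 3829 and 3604 CPM with DMSO and 3238, 2732 and 2869 CPM with NCP26, a log2 fold change of -0.50 ± 0.11 (SE, edgeR adjusted p = 0.00369), and the groups did not overlap. The same held for 48.9% of all tested genes (15.7% with NCP26 below). MT-ND3, at 528, 565 and 552 CPM with DMSO, stood at 917, 453 and 421 CPM with NCP26, so that replicate 1 lay above the DMSO range and the others below it, and MT-CO2 showed the same pattern, with 4749.7, 4841 and 4501 against 6884, 4129 and 4149.8 CPM. Without that replicate, 1 of the 4 libraries above, all 10 members were called lower, with a median of -0.43, while the share of all genes called in either direction went from 37.27% to 40.55%. Without DMSO replicate 1 or 2 or NCP26 replicate 2 the number of members was 2, and 2844, 2755 and 3174 of all genes were called, from 3975. The difference between the effects of 24 h and 6 h was tested as an interaction, in which edgeR called 0 of the 10 members (2 at an unadjusted p under 0.05) and DESeq2 called 0, where 17.5% of all genes were called. Without NCP26 6 h replicate 1, 2 members were called more positive and 1 more negative at 24 h, with 20.82% of all genes called. Without NCP26 6 h replicate 2, 2 were more negative at 24 h, and without replicate 3, 1 was. In these fits 1744 and 1890 of all genes were called, from 1932.

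In AMO1 most members were lower with HFG at 6 h and higher at 24 h, each against DMSO of the same time. At 6 h it lowered 8 members (background 26.6%), with a median log2 fold change of -0.26, and 0 were higher, whereas with total-count scaling 5 were lower and 2 higher. MT-ND1 fell from 3795, 3829 and 3604 CPM to 2962, 2855 and 3135 CPM, a log2 fold change of -0.50 ± 0.047 (SE, edgeR adjusted p = 3.34e-07). MT-CO3 fell from 5051, 5253 and 4957 CPM to 4439, 4259 and 4474 CPM, a log2 fold change of -0.39 ± 0.041 (SE, edgeR adjusted p = 1.26e-06). Neither overlapped between the groups, as for 61.5% of all tested genes (19.8% with HFG below). The other 6 calls were -0.39 for MT-ND4L, -0.32 for MT-ND4, -0.28 for MT-ND5, -0.25 for MT-ND6, -0.24 for MT-ND3 and -0.21 for MT-CO1. MT-ND2 and MT-CO2 did not pass, at -0.054 and -0.088. On CPM of the total count the HFG libraries of MT-ND2, at 2348, 2148 and 2332, lay above those of DMSO, at 2088, 2127 and 2065. The scale matters in this comparison, since with total-count scaling the median of all genes moved to 0.19, and MT-ND2 (0.12) and MT-CO2 (0.087) were the members called higher.

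At 24 h HFG raised 6 members (background 28.5%) and lowered 1 (background 30.5%), whereas with total-count scaling 7 were higher and 0 lower. MT-ND2 stood at 1931, 1846 and 1965 CPM with DMSO and 2818, 3202 and 2999 CPM with HFG, a log2 fold change of 0.54 ± 0.038 (SE, edgeR adjusted p = 8.25e-10). MT-CO2 stood at 4327, 4359 and 4717 CPM and 6537, 7139.8 and 7008 CPM, a log2 fold change of 0.52 ± 0.034 (SE, edgeR adjusted p = 2.50e-10). For both transcripts every HFG library lay above every DMSO library, and the same held for MT-ND3, at 464, 421 and 477 against 636, 681 and 693 CPM (0.45 ± 0.051 SE, edgeR adjusted p = 4.97e-07), and for MT-CO3, at 3587, 3523 and 3835 against 5028, 5650.4 and 5193 CPM (0.43 ± 0.037 SE, edgeR adjusted p = 1.43e-08). Every HFG library lay above every DMSO library for 37.9% of all tested genes. MT-ND6 and MT-CO1 rose by less, with log2 fold changes of 0.24 and 0.11. MT-ND4 was the member called lower, at -0.13 ± 0.029 (SE, edgeR adjusted p = 0.000698), although its CPM libraries overlapped, at 7901, 7912 and 7928 with DMSO and 7343, 8274 and 7718 with HFG. MT-ND1, MT-ND4L and MT-ND5 did not pass, with -0.018 for MT-ND1, -0.10 for MT-ND4L and 0.075 for MT-ND5.

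The change of the HFG effect between the times was tested directly, and all 10 members were more positive at 24 h (background 18.6%), from 0.22 for MT-ND4 to 0.85 for MT-CO3, with a median of 0.52 against -0.0018 over all genes. In this contrast MT-CO3 had a difference of 0.85 ± 0.059 (SE, edgeR adjusted p = 3.48e-09), MT-ND3 one of 0.73 ± 0.087 (SE, edgeR adjusted p = 2.22e-06) and MT-CO2 one of 0.64 ± 0.058 (SE, edgeR adjusted p = 6.97e-08). The contrast includes the change of the DMSO libraries, in which 7 members were lower at 24 h. The mean of MT-ND1 went from 3743 to 2650 CPM with DMSO and from 2984 to 2820 CPM with HFG. That of MT-CO3 went from 5087 to 3648 CPM with DMSO and from 4391 to 5291 CPM with HFG. Leaving out any 1 library left 9 or 10 of the 10 calls. For HFG against DMSO at 24 h, with all AMO1 groups in the fit 4 members were higher and 0 lower, and with a term for the set 3 were higher and 0 lower, or 1 higher and 0 lower without CFZ 24 h replicate 2. With that set term the difference between the times gave 5 calls, with or without that library. Without that library 25.1% of all genes were called for HFG at 24 h, against 28.5% higher and 30.5% lower in the first fit. For the difference between the times it was 15.9%, against 18.6% more positive and 21% more negative.

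**Figure D4:**
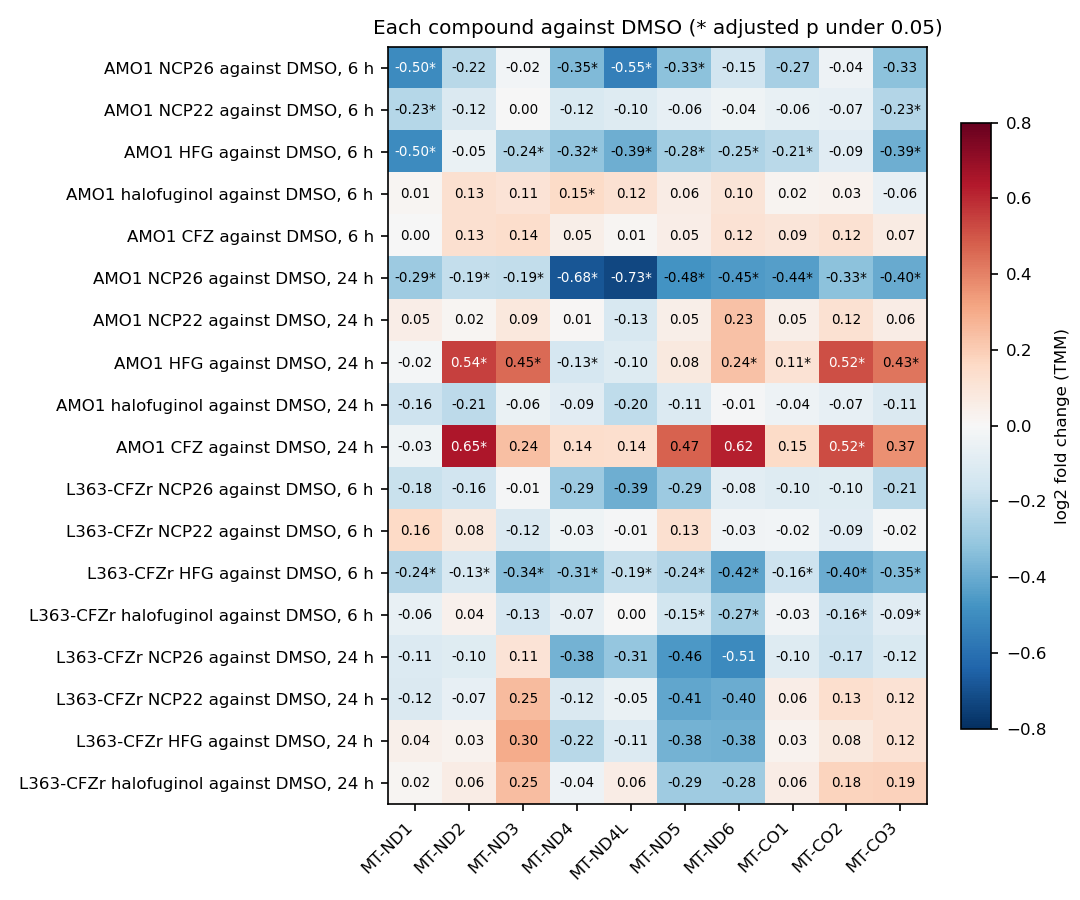
Log2 fold change of each member (columns) against DMSO of the same line and time, for every compound (rows), as a number and colour, with an asterisk where the edgeR adjusted p was under 0.05. In AMO1 at 24 h all 10 members were lower with NCP26, whereas 6 were higher and 1 lower with HFG.

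NCP26 and HFG were set against each other at 1 µM within line and time, a comparison added after the values were seen. At 24 h in AMO1, where both groups belong to the same set of sample numbers, all 10 members were lower with NCP26 (background 22.4%), with a median of -0.65. MT-CO2 stood at 6537, 7139.8 and 7008 CPM with HFG and 3933, 3911 and 4063 CPM with NCP26, a log2 difference of -0.86 ± 0.025 (SE, edgeR adjusted p = 1.37e-14). MT-CO3 stood at 5028, 5650.4 and 5193 CPM with HFG and 2913, 3169 and 3129 CPM with NCP26, a log2 difference of -0.84 ± 0.034 (SE, edgeR adjusted p = 1.74e-12). MT-ND1 differed least, at 2722, 2977 and 2761 CPM with HFG and 2395, 2394 and 2438 CPM with NCP26 (-0.29 ± 0.03 SE, edgeR adjusted p = 4.12e-07). No member's libraries overlapped between the groups in CPM, as for 53.3% of all tested genes (22.5% with NCP26 below), and all 10 calls were made whichever library was left out.

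At 6 h in AMO1 the compounds were not told apart, since edgeR called 0 of the 10 members (0 at an unadjusted p under 0.05) and DESeq2 called 0 (background 0.26%). The intervals (95%) of the log2 difference were -0.21 to 0.26 for MT-ND1, -0.27 to 0.22 for MT-CO1 and -0.34 to 0.82 for MT-ND3, which leaves room for differences of up to these bounds. Without AMO1 NCP26 6 h replicate 1, 4 members were called lower with NCP26, MT-CO2 (-0.27), MT-ND2 (-0.24), MT-CO3 (-0.17) and MT-CO1 (-0.17), with 0.92% of all genes called. In L363-CFZr at 24 h 7 members were lower with NCP26 (background 7.43%), from -0.13 for MT-CO1 to -0.25 for MT-CO2. MT-CO2 stood at 9788, 10494 and 10138 CPM with HFG and 8903, 8781 and 9162 CPM with NCP26, without overlap, a log2 difference of -0.25 ± 0.037 (SE, edgeR adjusted p = 0.000953). There 34.3% of all tested genes did not overlap, 11.8% with NCP26 below. At 6 h in L363-CFZr edgeR called 0 of the 10 members (2 at an unadjusted p under 0.05) and DESeq2 called 0 (background 0%), where the compounds belong to different sets, and 0 were called without L363-CFZr NCP26 6 h replicate 2 too. With all L363-CFZr groups in the fit 0 members were called at 24 h, and the fits without NCP26 replicate 2, HFG replicate 2 or HFG replicate 3 called 2. Without these libraries 960, 634 and 588 of all genes were called, in that order, from 1355.

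Halofuginol carries an alcohol in place of the ketone of HFG, and the pair was compared at the same dose, line and time. In AMO1 at 6 h all 10 members were lower with HFG than with halofuginol (background 26.1%, and 7 with total-count scaling, where MT-CO2 stood at 0.055), from -0.12 for MT-CO2 to -0.52 for MT-ND1, with a median of -0.35. MT-ND4 stood at 7198, 6550.1 and 7507 CPM with HFG and 9398, 8542 and 8231 CPM with halofuginol, without overlap, a log2 difference of -0.47 ± 0.043 (SE, edgeR adjusted p = 8.51e-08). These groups did not overlap for 60.8% of all tested genes (18.5% with HFG below). At 24 h 7 members were higher with HFG (background 27.2%). MT-ND2 stood at 2818, 3202 and 2999 CPM with HFG and 1729, 1755 and 1363 CPM with halofuginol, a log2 difference of 0.75 ± 0.078 (SE, edgeR adjusted p = 1.84e-07), the largest of the 10. MT-ND1, MT-ND4 and MT-ND4L did not pass, with intervals (95%) of 0.014 to 0.27, -0.17 to 0.081 and -0.064 to 0.26. In L363-CFZr HFG lay lower than halofuginol in 8 members at 6 h (background 24.2%), with MT-CO3 at -0.26 ± 0.027 (SE, edgeR adjusted p = 5.18e-09), and in 4 members at 24 h (background 12.3%), -0.19 for MT-ND4, -0.17 for MT-ND4L, -0.10 for MT-CO2 and -0.095 for MT-ND5. The members that did not pass at 6 h in that line were MT-ND5, with an interval of -0.19 to 0.022, and MT-ND6, with -0.28 to -0.011. The 8 calls of 6 h became 4 with total-count scaling, 3 with all L363-CFZr groups in the fit and 2 with a set term, estimated from the NCP22 libraries of 6 h. The 4 calls of 24 h were lost with all L363-CFZr groups in the fit and were 2 without HFG replicate 3. Leaving out that replicate gave 1608 of all genes called, from 2280.

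NCP26 was compared with NCP22 in the same way. In AMO1 at 24 h 9 members were lower with NCP26 (background 25.7%), with a median of -0.45. MT-ND4 stood at 7091, 8192 and 8199 CPM with NCP22 and 5311, 5677 and 5492 CPM with NCP26, a log2 difference of -0.67 ± 0.068 (SE, edgeR adjusted p = 2.39e-06), and MT-ND6 at 618, 599 and 613 and 422, 439 and 427 CPM, a difference of -0.66 ± 0.058 (SE, edgeR adjusted p = 6.05e-07). The groups did not overlap for either, as for 61.2% of all tested genes (21% with NCP26 below). MT-ND2 did not pass, with an interval of -0.34 to -0.025. At 6 h MT-ND4L alone was lower in AMO1 (background 12.2%), at -0.42 ± 0.11 (SE, edgeR adjusted p = 0.0158), as were 9 members without AMO1 NCP26 6 h replicate 1 (30.31% of all genes called in either direction, from 24.74%) and 0 without NCP26 replicate 3 or NCP22 replicate 1 or 2. The fits with 0 members called 2063, 1595 and 1532 of all genes, in that order, from 2668. In L363-CFZr MT-ND1 (-0.35) and MT-ND5 (-0.42) were lower at 6 h (background 10.4%), as were 8 members without L363-CFZr NCP26 6 h replicate 2 (33.57% of all genes called, from 20.36%). Both calls were lost without NCP26 replicate 1 or any NCP22 library. These fits called 1289, 1170, 1401 and 863 of all genes, in that order with NCP22 by replicate number, from 2177. At 24 h MT-CO2 (-0.31), MT-CO3 (-0.24) and MT-ND4 (-0.27) were lower with NCP26 (background 17.9%). Without NCP22 replicate 1 the number of members was 6, and without NCP26 replicate 2 it was 1. In these fits 3145 and 2743 of all genes were called, from 3627.

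**Figure D5:**
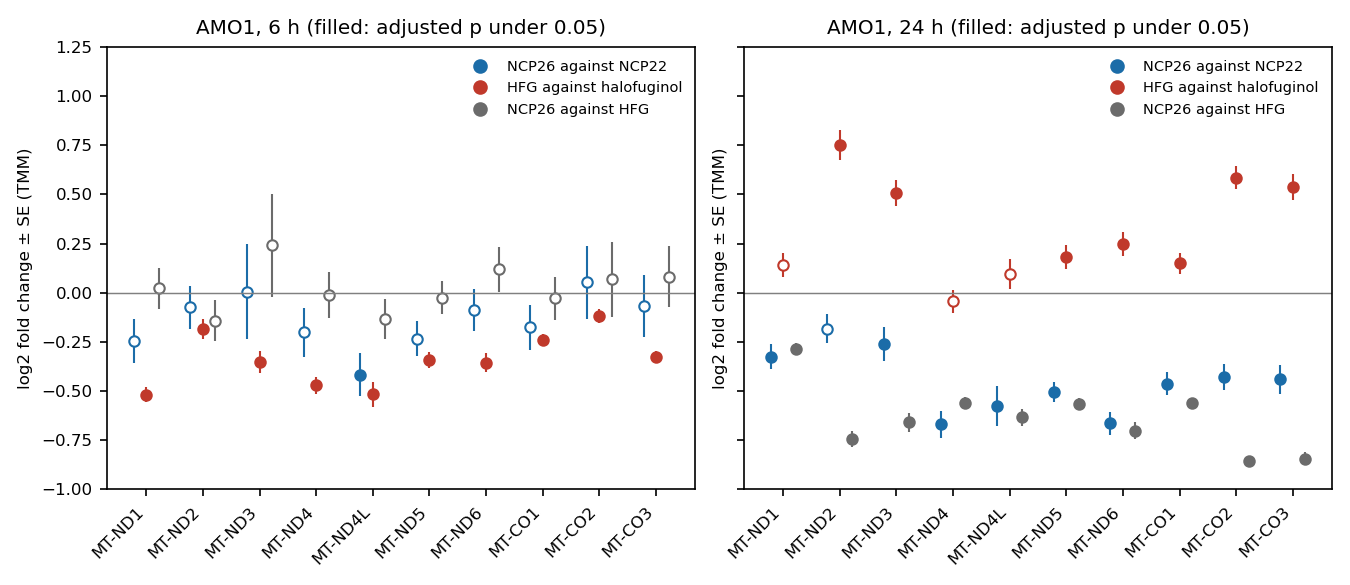
Log2 difference of each member between compounds at 1 µM in AMO1 cells at 6 h and 24 h, with bars of 1 SE and filled points where the adjusted p was under 0.05. For HFG against halofuginol the members lay below 0 at 6 h, and at 24 h all but MT-ND4 (-0.043) lay above it, whereas for NCP26 against NCP22 at 24 h all lay below 0.

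For NCP22 and halofuginol few members were called against DMSO in AMO1. At 6 h NCP22 lowered MT-ND1 (-0.23 ± 0.06 SE, edgeR adjusted p = 0.0142) and MT-CO3 (-0.23 ± 0.064 SE, edgeR adjusted p = 0.0185, background 6.08%), and halofuginol raised MT-ND4 (0.15 ± 0.039 SE, edgeR adjusted p = 0.0345, background 2.61%). MT-ND4 stood at 7729, 7993 and 7726 CPM with DMSO and 9398, 8542 and 8231 CPM with halofuginol. These 3 calls were lost with all AMO1 groups in the fit. NCP22 gave 0 calls without DMSO replicate 1 or 2 or NCP22 replicate 3 and 1 without NCP22 replicate 1, and halofuginol gave 0 without DMSO replicate 1 or any halofuginol library and 2 without DMSO replicate 3. The NCP22 fits called 643, 520, 570 and 842 of all genes, in that order, from 1443. The halofuginol fits called 173, 94, 97, 122 and 1407 of all genes, from 384. Of the 2 members without DMSO replicate 3, 1 was higher and 1 lower. At 24 h edgeR called 0 of the 10 members (1 at an unadjusted p under 0.05) and DESeq2 called 0 for NCP22, where 0% of all genes were called. For halofuginol at 24 h edgeR called 0 of the 10 members (3 at an unadjusted p under 0.05) and DESeq2 called 0 (background 0.183%). All 10 log2 fold changes were negative there, with a median of -0.10. In CPM every halofuginol library lay below every DMSO library for 6 members, as for 10.9% of all tested genes. The halofuginol and DMSO libraries of 24 h belong to different sets. The intervals (95%) of MT-ND4, which was lower with NCP26, were -0.15 to 0.17 for NCP22 and -0.21 to 0.029 for halofuginol. Without AMO1 NCP22 24 h replicate 1, 4 members were called higher with NCP22, and 144 of all genes were called in either direction, from 0.

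CFZ, which inhibits the proteasome and not a tRNA synthetase, served as a comparison in AMO1. At 6 h edgeR called 0 of the 10 members (4 at an unadjusted p under 0.05) and DESeq2 called 1 (background 26.9% in either direction). The log2 fold changes ran from -0.0044 to 0.14. The direction depended on the scale, because the share of the total count was lower with CFZ (3.91%, 3.82% and 3.72%, against 4.15%, 4.26% and 4.15% with DMSO) and with total-count scaling 6 members were called lower while the median of all genes moved to -0.21. Without DMSO replicate 2, 2 members were called higher, and 1 was without DMSO replicate 1 or 3 or CFZ replicate 2. These fits called 2334, 2475, 2926 and 2325 of all genes, in that order, from 2820. At 24 h MT-ND2 and MT-CO2 were higher (background 13.1%). MT-ND2 stood at 1931, 1846 and 1965 CPM with DMSO and 2973, 3288 and 2812 CPM with CFZ, a log2 fold change of 0.65 ± 0.13 (SE, edgeR adjusted p = 0.00675). MT-CO2 stood at 4327, 4359 and 4717 against 6849, 5963 and 6654 CPM, a log2 fold change of 0.52 ± 0.13 (SE, edgeR adjusted p = 0.0221). No library overlapped for either, as for 46.6% of all tested genes (23.3% with CFZ above). MT-ND5, at 2743, 2592 and 2672 with DMSO and 3162, 5047 and 2993 CPM with CFZ, did not pass (0.47 ± 0.21 SE, edgeR adjusted p = 0.129), and replicate 2 lay far above its replicates. Without that library 7 members were higher and MT-ND1 was lower, at -0.18, and the share of all genes called rose from 27.04% to 48.25%. Without AMO1 DMSO 24 h replicate 2, 0 members were called, and 1 was without DMSO replicate 1, DMSO replicate 3 or CFZ replicate 1. These fits called 1537, 1711, 1604 and 2291 of all genes, in that order, from 2886. The effect differed between the times for MT-ND2 (0.50 ± 0.13 SE, edgeR adjusted p = 0.0142, background 8.05%), and without CFZ 24 h replicate 2 for 5 members, 4 of them more positive at 24 h, with the share of all genes called going from 19.63% to 30.55%.

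In L363-CFZr at 6 h HFG lowered all 10 members (background 27.5%), with a median of -0.28 against -0.0022 over all genes. MT-CO2 stood at 9334, 9211 and 10155 CPM with DMSO and 7904, 7488 and 8211 CPM with HFG, a log2 fold change of -0.40 ± 0.04 (SE, edgeR adjusted p = 1.89e-08). MT-CO3 stood at 7651, 7265 and 8080.4 against 6549, 6289 and 6659.6 CPM (-0.35 ± 0.039 SE, edgeR adjusted p = 8.12e-08), and MT-ND4 at 10715, 10754 and 10987 against 9497, 8692 and 10032 CPM (-0.31 ± 0.038 SE, edgeR adjusted p = 2.99e-07). The groups did not overlap for these 3 or for MT-ND3, and they overlapped for the other 6. Of all tested genes 59.3% did not overlap, 22.1% with HFG below. Halofuginol lowered 4 members (background 12.2%), -0.27 for MT-ND6, -0.16 for MT-CO2, -0.15 for MT-ND5 and -0.093 for MT-CO3, of which 1 was called without halofuginol replicate 2 and 0 with all L363-CFZr groups in the fit. Leaving out that replicate gave 1492 of all genes called, from 2719. Both compounds belong to another set of sample numbers than the DMSO libraries of 6 h, and with a term for the set, estimated from the 3 NCP22 libraries of 6 h, HFG gave 1 call.

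With NCP26 at 6 h in L363-CFZr edgeR called 0 of the 10 members (2 at an unadjusted p under 0.05) and DESeq2 called 2. The background was 18.8% in either direction, and 8.99% of all tested genes were called lower. All 10 log2 fold changes were negative, from -0.0093 for MT-ND3 to -0.39 for MT-ND4L. MT-ND4 stood at 10715, 10754 and 10987 CPM with DMSO and 9908, 8299.6 and 9541 CPM with NCP26, without overlap (-0.29 ± 0.11 SE, edgeR adjusted p = 0.0786). Here 37.8% of all tested genes did not overlap, 15.2% with NCP26 below. Without L363-CFZr NCP26 6 h replicate 2, 8 members were called lower, with a median of -0.22, and the share of all genes called rose from 18.8% to 36.68%, whereas 1 member was called without replicate 3. Leaving out replicate 3 gave 1615 of all genes called, from 2012. With NCP22 at 6 h edgeR called 0 of the 10 members (3 at an unadjusted p under 0.05) and DESeq2 called 0 (background 0%).

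At 24 h in L363-CFZr edgeR called 0 members against DMSO with NCP26 (background 7.09%), NCP22 (background 0%), HFG (background 1.17%) or halofuginol (background 0%). With each of the 4 compounds 0 members had an unadjusted p under 0.05, and DESeq2 called 0. In data simulated for the NCP26 comparison edgeR called 0 of 100 genes changed by a log2 fold of 0.5. These genes were drawn at random from all tested genes, whatever their level, and not from the members. The simulated spread was that of the full groups, DMSO replicate 2 included. The 0 calls of edgeR thus do not show that changes of that size were absent. The intervals (95%) of the log2 fold change of MT-CO2 were -0.57 to 0.23 for NCP26 and -0.28 to 0.44 for HFG. MT-ND4 stood at 12847, 16349 and 13096 CPM with DMSO, 10567, 10553 and 11345 CPM with NCP26 and 11268, 11882 and 11447 CPM with HFG. The DMSO libraries lay above both, and replicate 2 lay above the other DMSO libraries. MT-CO2 stood at 10384, 9279 and 10391 CPM with DMSO and 8903, 8781 and 9162 CPM with NCP26, without overlap. Against DMSO 31.9% of all tested genes did not overlap with NCP26 (15.5% with NCP26 below). With HFG it was 31.3% (19.3% with HFG below). Without DMSO replicate 2 NCP26 was called lower in 7 members, with a median of -0.18, HFG lower in 2 and higher in 1, and NCP22 and halofuginol in 0. In that fit 28.61% of all genes were called with NCP26 and 19.55% with HFG, from 7.09% and 1.17%.

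Whether the effects differed between the lines was tested as an interaction over 12 libraries. For NCP26 at 6 h edgeR called 0 of the 10 members (0 at an unadjusted p under 0.05) and DESeq2 called 0 (background 2.71%), and at 24 h edgeR called 0 of the 10 members (1 at an unadjusted p under 0.05) and DESeq2 called 2 (background 5.41%). Without L363-CFZr DMSO 24 h replicate 2, 6 members had a less negative NCP26 effect in L363-CFZr than in AMO1 at 24 h, while the share of all genes called went from 5.41% to 21.14%. The effect of HFG at 6 h was more positive in L363-CFZr for MT-ND1 (0.27 ± 0.077 SE, edgeR adjusted p = 0.0149, background 11.3%) and more negative for MT-CO2 (-0.30 ± 0.063 SE, edgeR adjusted p = 0.00155, background 9.34%). At 24 h it was more negative in L363-CFZr for MT-ND2 (-0.53 ± 0.13 SE, edgeR adjusted p = 0.0178) and MT-CO2 (-0.45 ± 0.14 SE, edgeR adjusted p = 0.0499, background 8.82%). Without DMSO replicate 2 of L363-CFZr, 7 members were more negative and 1 more positive, with the share of all genes called going from 16.88% to 33.35%, and without any 1 of 9 other libraries, all but DMSO replicates 1 and 3 of L363-CFZr, 0 or 1 member was called. These 9 fits called between 1355 and 1496 of all genes, from 1883. The 2 calls of 24 h became 1 with DESeq2 size factors or scaling on nuclear genes and 0 with no filter, a replicate block or a set term. The 2 calls of 6 h became 0 with all 66 libraries in the fit, with or without a set term, and fell to 1 without AMO1 HFG replicate 2 or L363-CFZr HFG replicate 1. Leaving out these libraries gave 1884 and 1816 of all genes called, in that order, from 2285. The NCP26 effect in L363-CFZr was not called different between 24 h and 6 h, since edgeR called 0 of the 10 members (0 at an unadjusted p under 0.05) and DESeq2 called 0 (background 0.691%).

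The DMSO libraries of 24 h and 6 h differ in time, storage and culture of the untreated cells. In L363-CFZr they also belong to different sets of sample numbers, so time and set cannot be told apart there. In AMO1, where both groups belong to the same set, 7 members were lower at 24 h (background 23.4%). MT-ND1 went from 3795, 3829 and 3604 CPM to 2638, 2529 and 2784 CPM (-0.56 ± 0.049 SE, edgeR adjusted p = 5.06e-09), and MT-CO3 from 5051, 5253 and 4957 CPM to 3587, 3523 and 3835 CPM (-0.54 ± 0.047 SE, edgeR adjusted p = 4.83e-09), without overlap. The times did not overlap for 54.2% of all tested genes, 23% with 24 h below. With all AMO1 groups in the fit 2 members were called lower, and with a set term 2, or 4 without CFZ 24 h replicate 2. Without that replicate 42.2% of all genes were called, against 23.1% higher and 23.4% lower in the first fit. MT-CO1 and the shared mRNA of MT-ND4L and MT-ND4 did not pass, at -0.032 for MT-CO1, -0.075 for MT-ND4L and -0.045 for MT-ND4. For MT-ND1 this compares with -0.50 for HFG and -0.50 for NCP26 against DMSO at 6 h. In L363-CFZr edgeR called 0 of the 10 members (0 at an unadjusted p under 0.05) and DESeq2 called 0 (background 14.8%), and without DMSO 24 h replicate 2, 4 members were higher and 1 lower at 24 h, while the share of all genes called went from 14.81% to 41.11%.

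The members varied together to different degrees. Over the 66 libraries, with log2 CPM centred on the mean of each line, Pearson's r was 0.88 between MT-ND4L and MT-ND4, 0.83 between MT-ND5 and MT-ND6, 0.83 between MT-ND4 and MT-ND5 and 0.80 between MT-CO1 and MT-CO2. At the low end of the 45 pairs it was 0.14 between MT-ND3 and MT-ND4 and -0.075 between MT-ND3 and MT-ND5. Without the 4 libraries above these 6 values were 0.92, 0.87, 0.80, 0.84, 0.51 and 0.57 over 62 libraries, and the lowest pair was MT-ND1 with MT-CO2, at 0.14. These values are a description, since libraries share depth, total count and, within a group, treatment. The 10 transcripts lie between 40.17% and 47.7% GC, under the 48.93% of the median gene of the table, and between 2.02% (MT-ND4L) and 6.96% (MT-ND3) of their codons specify proline. Across the 10 members Pearson's r between the log2 fold change and the share of proline codons ran from -0.51 to 0.77 over the 42 comparisons, where -0.51 belongs to DMSO at 24 h against 6 h in L363-CFZr, which holds 1 of the 4 libraries. It was 0.75 for NCP26 against DMSO at 24 h in AMO1, where MT-ND3 and MT-ND2 fell least. For HFG against DMSO in AMO1 it was 0.27 at 6 h and 0.43 at 24 h. Against DMSO at 24 h in L363-CFZr, where 0 members were called, it was 0.70 for NCP26 and 0.62 for HFG. There it was 0.47 for NCP22 and 0.475 for halofuginol, and the DMSO group holds 1 of the 4 libraries. MT-ND4L and MT-ND6 (2.29%) had the lowest shares of proline codons, and the next was MT-CO3 at 4.98%. Members are not independent replicates, and no test was made of these values. The charging of the mitochondrial tRNA that reads these codons was not measured.

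The nuclear genes whose levels ran most like the summed level of the 10 members, over the 22 group means centred on each line, were ADAM15, a membrane metalloproteinase (Pearson's r = 0.93), PLD3, an endolysosomal nuclease (0.91), PTDSS1, a phosphatidylserine synthase (0.90), PABPC1, the cytoplasmic poly(A)-binding protein (0.87), and PPP1R16A, a phosphatase regulatory subunit (0.86). Least like it were KIDINS220 (-0.91), SRPK2 (-0.86), UVRAG (-0.86), IRF2BP2 (-0.86) and STX7 (-0.85). These are the ends of a ranking of 10012 genes, and with total-count scaling the first 5 of these genes had r between 0.79 and 0.90 and the last 5 between -0.63 and -0.47. The members themselves had r between 0.68 (MT-ND1) and 0.94 (MT-CO1) with the sum they belong to. Without the 4 libraries the first 5 genes had r between 0.85 and 0.92 and the last 5 between -0.93 and -0.86, and the members r between 0.63 (MT-ND1) and 0.96 (MT-ND4L).

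Other genes of the pathway were counted from 5 lists, together with the remaining mitochondrial mRNAs. MT-CYB, of complex III, and MT-ATP6 and MT-ATP8, of ATP synthase, are the other 3. In AMO1 at 24 h their log2 fold changes against DMSO were -0.51, -0.46 and -0.37 with NCP26. With HFG they were 0.16, 0.35 and 0.50, and with CFZ 0.49, 0.62 and 0.72. The CFZ values include replicate 2, 1 of the 4 libraries above, and are not given without it. MT-ATP6 stood at 3865, 4690 and 3515 CPM in the CFZ libraries. The 37 nuclear subunits of complex I and 12 of complex IV, which assemble with the ND and CO proteins, gave 0 higher and 34 lower, and 0 higher and 11 lower, with HFG at 6 h in AMO1, where the median log2 fold changes were -0.51 and -0.54. Of all tested genes 27.7% were higher and 26.6% lower in that comparison. NDUFB9 (-1.09), NDUFA8 (-1.07) and COX6B1 (-0.85) were among the largest. With HFG at 6 h in L363-CFZr the counts were 2 higher and 32 lower for complex I and 1 higher and 11 lower for complex IV. There 26.9% of all tested genes were higher and 27.5% lower. The HFG and DMSO libraries belong to different sets of sample numbers there, and these counts are not given with a set term. With NCP26 at 6 h in AMO1 the counts were 0 higher and 14 lower for complex I and 0 higher and 1 lower for complex IV. In this comparison 18.1% of all tested genes were higher and 19.1% lower. Its counts include NCP26 replicate 1, 1 of the 4 libraries above, and are not given without it. Set directly against HFG at 6 h in AMO1, NCP26 had 0.26% of all genes called.

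At 24 h in AMO1 the nuclear subunits did not move in 1 direction. Of all tested genes 29.8% were higher and 30.9% lower with NCP26, and 28.5% higher and 30.5% lower with HFG. With NCP26, 6 higher and 18 lower were called in the complex I list and 1 higher and 8 lower in the complex IV list, led by NDUFB9 (-1.64), NDUFS3 (-1.21) and COX6A1 (-1.18). With HFG, 9 higher and 14 lower and 2 higher and 7 lower were called, so that in the same libraries in which 6 members rose, NDUFS3 (-0.80) and COX6A1 (-0.56) were lower. The change of the HFG effect from 6 h to 24 h was positive for 25 of 37 and 12 of 12, and negative for 0 in both. It was positive for 18.6% and negative for 21% of all tested genes. With CFZ at 24 h, when 14% of all tested genes were lower, 0 higher and 3 lower were called in complex I and 0 in complex IV. The CFZ counts include replicate 2, described above as departing from its replicates, and are not given without it. In AMO1 DMSO from 6 h to 24 h, 0 were higher, and 32 of complex I and 11 of complex IV were lower. Of all tested genes 23.1% were higher and 23.4% lower between these times.

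The shares of all genes given above for NCP26 and HFG at 24 h in AMO1 are the background of the counts in these further lists. No list was tested against them. Of 16 genes for transcription and upkeep of mitochondrial DNA, 2 higher and 6 lower were called with NCP26 at 24 h in AMO1, with POLG, the mitochondrial DNA polymerase, at -0.84 and MGME1, a mitochondrial exonuclease, at 0.76, and 2 higher and 3 lower with HFG, with MTERF2 at 1.38 and TFB1M at -1.10. Of 24 genes for processing, stability and decay of mitochondrial RNA, 3 higher and 9 lower were called with NCP26 and 2 higher and 9 lower with HFG at 24 h. C1QBP, a matrix protein, was the most changed with either, at -1.55 and -1.51. ELAC2, the nuclease that cuts the 3′ ends of tRNAs from the precursor, stood at -1.42 with HFG at 6 h and -0.88 at 24 h. SLIRP, which stabilises mitochondrial mRNAs, stood at -0.88 with NCP26 at 24 h. Among 6 regulators of mitochondrial biogenesis, 0 higher and 2 lower were called with NCP26 and 0 higher and 2 lower with HFG at 24 h, PPARGC1A, a coactivator of nuclear genes for respiration, being lower with both (-1.30 and -1.16).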

How the data were processed

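Polyadenylated RNA of AMO1 and L363-CFZr cells was sequenced as paired directional libraries. The authors pseudoaligned the reads with kallisto and deposited whole-number counts per gene, 1 column per library. The study's methods name GRCh38 and the submitters' processing notes name hg19, and the annotation, the version of kallisto and its strand setting were not stated in any source used here. GENCODE v44 named 19299 of the 20167 Ensembl gene identifiers (95.7%). No rows of unassigned reads were present.

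Counts were analysed as deposited. CPM is counts per 1000000 of the total count. Each comparison was fitted on the compared groups alone with edgeR 4.0.16 (R 4.3.3): genes passed filterByExpr (at least 10 counts, at least 15 in total), libraries were scaled by TMM, and the quasi-likelihood test was followed by Benjamini-Hochberg adjustment over all tested genes, with calls at an adjusted p under 0.05. Differences of effects were interaction terms, and 42 comparisons were made. The background beside a count is the share of all tested genes called in that comparison and direction. Where edgeR called 0 members, it is the share called in either direction. Samples were grouped by cell line, treatment and time in their labels. All 66 pairs of libraries within groups differed by more than sampling noise. Alternatives were DESeq2 1.42.0 (Wald test, size factors), total-count scaling, scaling on nuclear genes, no filter, a GC offset, a replicate block, all groups in one fit with and without a set term, and leaving out each library. The fits were tested on simulated data, in which 100 genes changed by a log2 fold of 0.5 and 100 by 1. For L363-CFZr NCP26 against DMSO at 24 h edgeR called 0 and 24 of these, and 27.3% of its calls were false. For AMO1 NCP26 against DMSO at 6 h it called 32 and 83, with 4.17% false. The false share was 10.1% for AMO1 HFG against halofuginol at 24 h and 8.79% for the HFG effect in AMO1 (24 h minus 6 h). Sequences were read from GRCh38.

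The members and lists were chosen with earlier results of these data known. The lists were plasma cell, T cell, myeloid, mature B cell and erythroid markers, nuclear subunits of complexes I and IV, mitochondrial transcription, mitochondrial RNA processing, regulators of biogenesis, and the other mitochondrial genes. All 10 members and the other mitochondrial mRNAs were named, from each list at most 3 called genes of the largest absolute log2 fold change in a comparison, and the 5 nuclear genes most and least like the summed members by Pearson's r of the 22 group means (mean of at least 5 CPM). NCP26 against HFG, leaving out the 4 libraries, and the set term without AMO1 CFZ 24 h replicate 2 were added after the values were seen.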

Additional observations from a re-analysis of the deposited data

Results flagged for a closer look

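The effect of HFG against DMSO in AMO1 differed between 24 h and 6 h, by a test of the difference itself (edgeR, adjusted p from 3.48e-09 for MT-CO3 to 0.00496 for MT-ND4), in every one of the 10 members. The differences on the log2 scale were 0.85 for MT-CO3, 0.73 for MT-ND3, 0.64 for MT-CO2 and 0.63 for MT-ND2 among the largest, then 0.52 for MT-ND6, 0.52 for MT-ND1, 0.39 for MT-ND5 and 0.36 for MT-CO1, and 0.32 for MT-ND4L and 0.22 for MT-ND4. The 24 h libraries of HFG and of DMSO belong to different sets of sample numbers, and with a term for the set, estimated from the 3 CFZ libraries of 24 h, 5 of the 10 members were called. Without CFZ 24 h replicate 2 the number was 5 too, with 15.9% of all genes called. In the first fit 18.6% of all genes were more positive and 21% more negative. The differences include the change of the DMSO libraries between the times, in which 7 members were lower at 24 h. HFG against halofuginol, whose libraries belong to 1 set at each time, had 10 members lower at 6 h and 7 higher at 24 h, and the difference between these was not tested.

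The effect of HFG also differed between the lines by the same kind of test. At 6 h it was more positive in L363-CFZr than in AMO1 for MT-ND1 (0.27) and more negative for MT-CO2 (-0.30), and at 24 h it was more negative for MT-ND2 (-0.53) and MT-CO2 (-0.45). The 2 calls of 6 h were 0 with all 66 libraries in the fit, with or without a set term. The 2 calls of 24 h were 0 with no filter, a replicate block or a set term and 1 with DESeq2 size factors or scaling on nuclear genes. The effect of CFZ in AMO1 was more positive at 24 h than at 6 h for MT-ND2 (0.50). The check of single outlying samples by their gap and range needs at least 4 samples a group and was not made, and the 4 libraries whose mix of members departed from their replicates are described above. No data outside the count table were used.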

How the results depend on the processing

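Each comparison was refitted under 9 other settings and without each library in turn. Of 420 member log2 fold changes the sign differed in 57 with total-count scaling, which moved the median of all genes by up to 0.234 (no filter, 0.111), in 32 with a set term, and in 2 to 13 with each of the other settings. Among members called in either fit it differed in 8 of 167 with total-count scaling, 3 of 163 with a set term and 0 with DESeq2's Wald test, DESeq2 size factors, a GC offset, no filter, a replicate block, all groups in one fit or scaling on nuclear genes. Counts of members called stayed within 1.5 times of the count first given except as follows, and the cause was not tested. With total-count scaling the number of members called was 1 for L363-CFZr NCP26 against NCP22 at 6 h (from 2) and NCP26 effect in AMO1 (24 h minus 6 h) (from 0), 2 for AMO1 NCP26 against DMSO at 6 h (from 4) and L363-CFZr NCP26 against HFG at 24 h (from 7), 4 for L363-CFZr HFG against halofuginol at 6 h (from 8), 5 for CFZ effect in AMO1 (24 h minus 6 h) (from 1) and 6 for AMO1 CFZ against DMSO at 6 h (from 0) and L363-CFZr HFG against DMSO at 6 h (from 10). With no filter on low counts it was 0 for HFG effect (L363-CFZr minus AMO1) at 24 h (from 2), 1 for L363-CFZr NCP26 against DMSO at 6 h (from 0) and NCP26 effect in AMO1 (24 h minus 6 h) (from 0), 2 for AMO1 CFZ against DMSO at 6 h (from 0) and AMO1 halofuginol against DMSO at 24 h (from 0) and 5 for AMO1 NCP26 against NCP22 at 6 h (from 1). With an offset for GC content it was 0 for AMO1 halofuginol against DMSO at 6 h (from 1), 2 for AMO1 CFZ against DMSO at 6 h (from 0), L363-CFZr NCP26 against DMSO at 6 h (from 0), AMO1 NCP26 against NCP22 at 6 h (from 1) and CFZ effect in AMO1 (24 h minus 6 h) (from 1) and 5 for L363-CFZr NCP26 against NCP22 at 6 h (from 2) and L363-CFZr NCP26 against NCP22 at 24 h (from 3). With DESeq2's Wald test it was 1 for AMO1 CFZ against DMSO at 6 h (from 0), 2 for L363-CFZr NCP26 against DMSO at 6 h (from 0), L363-CFZr halofuginol against DMSO at 6 h (from 4), AMO1 NCP26 against NCP22 at 6 h (from 1), NCP26 effect (L363-CFZr minus AMO1) at 24 h (from 0) and CFZ effect in AMO1 (24 h minus 6 h) (from 1) and 4 for AMO1 CFZ against DMSO at 24 h (from 2). With DESeq2 size factors it was 1 for HFG effect (L363-CFZr minus AMO1) at 24 h (from 2). With scaling on nuclear genes it was 1 for HFG effect (L363-CFZr minus AMO1) at 24 h (from 2). With all groups of a line, or all 66 libraries for comparisons of both lines, in the fit it was 0 for AMO1 NCP22 against DMSO at 6 h (from 2), AMO1 halofuginol against DMSO at 6 h (from 1), L363-CFZr halofuginol against DMSO at 6 h (from 4), L363-CFZr HFG against halofuginol at 24 h (from 4), HFG effect (L363-CFZr minus AMO1) at 6 h (from 2) and L363-CFZr NCP26 against HFG at 24 h (from 7), 1 for NCP26 effect (L363-CFZr minus AMO1) at 24 h (from 0), 2 for L363-CFZr NCP26 against DMSO at 6 h (from 0), AMO1 NCP26 against NCP22 at 6 h (from 1) and AMO1 DMSO (24 h against 6 h) (from 7), 3 for L363-CFZr HFG against halofuginol at 6 h (from 8) and CFZ effect in AMO1 (24 h minus 6 h) (from 1), 4 for AMO1 HFG against DMSO at 24 h (from 7), L363-CFZr NCP26 against DMSO at 24 h (from 0) and AMO1 HFG against halofuginol at 24 h (from 7) and 5 for AMO1 CFZ against DMSO at 24 h (from 2), L363-CFZr NCP26 against NCP22 at 6 h (from 2) and L363-CFZr DMSO (24 h against 6 h) (from 0). With the set of sample numbers as a further term it was 0 for AMO1 NCP22 against DMSO at 6 h (from 2), AMO1 halofuginol against DMSO at 6 h (from 1), L363-CFZr halofuginol against DMSO at 6 h (from 4), L363-CFZr HFG against halofuginol at 24 h (from 4), HFG effect (L363-CFZr minus AMO1) at 6 h (from 2), HFG effect (L363-CFZr minus AMO1) at 24 h (from 2) and L363-CFZr NCP26 against HFG at 24 h (from 7), 1 for L363-CFZr HFG against DMSO at 6 h (from 10), 2 for L363-CFZr NCP26 against DMSO at 6 h (from 0), L363-CFZr HFG against halofuginol at 6 h (from 8) and AMO1 DMSO (24 h against 6 h) (from 7), 3 for AMO1 HFG against DMSO at 24 h (from 7) and AMO1 NCP26 against NCP22 at 6 h (from 1), 4 for L363-CFZr NCP26 against DMSO at 24 h (from 0) and 5 for AMO1 NCP26 against DMSO at 24 h (from 10) and HFG effect in AMO1 (24 h minus 6 h) (from 10). With that term and without AMO1 CFZ 24 h replicate 2, a choice made after the values were seen, it was 0 for AMO1 halofuginol against DMSO at 6 h (from 1) and HFG effect (L363-CFZr minus AMO1) at 6 h (from 2), 1 for AMO1 NCP22 against DMSO at 6 h (from 2), AMO1 HFG against DMSO at 24 h (from 7) and HFG effect (L363-CFZr minus AMO1) at 24 h (from 2), 4 for AMO1 DMSO (24 h against 6 h) (from 7), 5 for AMO1 NCP26 against DMSO at 24 h (from 10), AMO1 CFZ against DMSO at 24 h (from 2), AMO1 NCP26 against NCP22 at 6 h (from 1) and HFG effect in AMO1 (24 h minus 6 h) (from 10), 6 for L363-CFZr against AMO1 in DMSO at 6 h (from 10) and 7 for AMO1 NCP26 against DMSO at 6 h (from 4).

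Members called in either fit that reversed under total-count scaling were, for HFG against DMSO in AMO1 at 6 h, MT-ND2 (0.12) and MT-CO2 (0.087), for CFZ against DMSO at 6 h MT-CO1 (-0.11), MT-CO3 (-0.14), MT-ND4L (-0.19), MT-ND4 (-0.16) and MT-ND5 (-0.16), and for HFG against halofuginol in AMO1 at 6 h MT-CO2 (0.055). With the set term MT-ND3 reversed for NCP26 in AMO1 at 24 h (0.092), MT-ND6 for HFG in AMO1 at 24 h (-0.10) and MT-ND5 between the lines at 6 h (-0.072). When 1 library was left out, the log2 values of the members that reversed ran from -0.038 to 0.076 for MT-CO1 in L363-CFZr HFG against DMSO at 24 h, -0.28 to 0.19 for MT-CO2 in AMO1 NCP26 against NCP22 at 6 h, -0.49 to 0.22 for MT-ND3 in AMO1 NCP26 against NCP22 at 6 h, -0.13 to 0.30 for MT-ND5 in NCP26 effect (L363-CFZr minus AMO1) at 24 h, -0.22 to 0.23 for MT-ND6 in NCP26 effect (L363-CFZr minus AMO1) at 24 h, -0.39 to 0.32 for MT-ND3 in NCP26 effect in AMO1 (24 h minus 6 h), -0.27 to 0.22 for MT-CO2 in AMO1 NCP26 against HFG at 6 h and -0.17 to 0.20 for MT-CO3 in AMO1 NCP26 against HFG at 6 h. The number of members called, without each library in turn and with the number from all libraries in parentheses, ran from 0 to 2 for AMO1 NCP22 against DMSO at 6 h (2), AMO1 halofuginol against DMSO at 6 h (1) and AMO1 CFZ against DMSO at 6 h (0), from 0 to 3 for L363-CFZr HFG against DMSO at 24 h (0) and NCP26 effect in AMO1 (24 h minus 6 h) (0), from 0 to 4 for AMO1 NCP22 against DMSO at 24 h (0) and AMO1 NCP26 against HFG at 6 h (0), from 0 to 5 for L363-CFZr DMSO (24 h against 6 h) (0), from 0 to 6 for NCP26 effect (L363-CFZr minus AMO1) at 24 h (0), from 0 to 7 for L363-CFZr NCP26 against DMSO at 24 h (0), from 0 to 8 for AMO1 CFZ against DMSO at 24 h (2), L363-CFZr NCP26 against DMSO at 6 h (0), L363-CFZr NCP26 against NCP22 at 6 h (2) and HFG effect (L363-CFZr minus AMO1) at 24 h (2), from 0 to 9 for AMO1 NCP26 against NCP22 at 6 h (1), from 1 to 3 for HFG effect (L363-CFZr minus AMO1) at 6 h (2), from 1 to 5 for CFZ effect in AMO1 (24 h minus 6 h) (1), from 1 to 6 for L363-CFZr halofuginol against DMSO at 6 h (4) and L363-CFZr NCP26 against NCP22 at 24 h (3), from 2 to 4 for L363-CFZr HFG against halofuginol at 24 h (4), from 2 to 9 for L363-CFZr NCP26 against HFG at 24 h (7), from 2 to 10 for AMO1 NCP26 against DMSO at 6 h (4) and from 5 to 10 for L363-CFZr against AMO1 in DMSO at 24 h (9). In the other 19 comparisons it stayed within 1.5 times. The summed share of the members over all libraries was 5.08% of the total count and 5.418% of the total count without the mitochondrially encoded genes, a smaller denominator by construction.

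Replicate numbers recur in every group, but no label says that a number marks a shared culture or day. In 34 comparisons of 2 groups the deviations of same-numbered libraries were correlated, and in 0 of them was every correlation over 0.1, so the numbers were not taken to pair the samples. With the replicate number as a block the number of members called was 0 for AMO1 halofuginol against DMSO at 6 h (from 1) and HFG effect (L363-CFZr minus AMO1) at 24 h (from 2) and 1 for AMO1 CFZ against DMSO at 24 h (from 2) and L363-CFZr NCP26 against NCP22 at 24 h (from 3), and in 36 of 40 comparisons it stayed within 1.5 times. The block could not be fitted within lines for the 2 comparisons of the lines. The members together held at least 74567 reads in every library, and the lowest counts of single members were 897 for MT-ND3 and 1088 for MT-ND6. The effect of depth on the calls was not tested, and 3 libraries a group limit the estimate of the spread.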
